A study of Mus musculus with 6 samples.

Results

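The Ifi200 genes encode interferon-inducible proteins that bind DNA in the cytosol and nucleus. Here 6 gene symbols of the family (Ifi202b, Ifi203, Ifi204, Ifi205, Aim2 and Mnda) were looked up in the platform annotation of an Affymetrix array, and every probe set whose symbol field included one of them was taken. This gave 10 of the 45037 probe sets tested. In 4 of these the field held a single symbol (Aim2, Ifi202b, Ifi203 and Ifi204, 1 probe set each), and in the other 6 it held several, so that their signal cannot be assigned to one gene. Ifi205 appeared only among the shared probe sets, and Mnda had none under that symbol. In the reference annotation Mnda is an older name of Ifi211, which shares probe sets with Ifi205.

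The samples were spleens of adult females of (AKR/J x FVB/NJ)F1, shortened to AKR/J F1 below, and of (DBA/2J x FVB/NJ)F1, shortened to DBA/2J F1, with 3 arrays in each. The mice of both crosses were killed under Avertin anaesthesia, and the labels name no other treatment and no age in weeks. The labels describe the aim as a search for baseline differences in splenic expression between these genotypes. Every animal of either cross carries 1 FVB/NJ copy of each autosomal gene, so the crosses differ in the other copy, and the array reports both copies together. Each difference is the AKR/J F1 mean minus that of DBA/2J F1, in the log2 units of the deposited values, and is positive where AKR/J F1 was higher. An adjusted p under 0.05 in limma, adjusted over all 45037 probe sets, was required for a call. The labels do not say whether each array was a separate animal, and the p-values measure the spread between these 6 samples.

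Most proteins of the family join a pyrin domain, which recruits partner proteins, to a HIN domain, which grips double-stranded DNA. AIM2 senses cytosolic DNA and assembles an inflammasome with the adaptor ASC (gene Pycard) and caspase-1. The mouse protein p202, product of Ifi202b, has HIN domains and no pyrin domain, and it is known to restrain AIM2. The cluster on mouse chromosome 1 has been shaped by duplication, differs between inbred strains, and has been studied in mouse models of lupus because Ifi202b expression varies among strains.

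In the reference annotation the cluster runs from Aim2 to Ifi205 and holds 19 annotated genes, 13 of them protein-coding. RefSeq promoter windows of build GRCm38.p6, which reach from 250 bases before to 50 bases after a start, were found for 12 of the 13, among them Aim2, Ifi202b, Ifi203 and Ifi205. They are C57BL/6J sequence and not that of the parents used here. Both strands were searched for the core of the interferon-stimulated response element, a site bound by interferon-activated transcription factors, written GAAANNGAAA, and for the core of the gamma-activated site, written TTCNNNGAA. Both motifs were chosen with the sequences in view, and no match of one overlapped a match of the other in the cluster. The stretches below are shown because most genes of the cluster have the first motif, and some members do not. Each is written 5′ to 3′ on the gene's own strand, with a match in capitals, and Aim2 and Ifi202b, which lack the first motif, are given whole.
Aim2, chr1:173420354-173420653, plus strand: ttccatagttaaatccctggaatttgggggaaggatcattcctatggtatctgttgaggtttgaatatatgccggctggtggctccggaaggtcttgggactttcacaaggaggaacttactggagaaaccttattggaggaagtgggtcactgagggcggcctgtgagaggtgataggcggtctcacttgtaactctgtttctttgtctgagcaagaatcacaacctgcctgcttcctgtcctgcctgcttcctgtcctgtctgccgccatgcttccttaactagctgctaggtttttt
Ifi213, chr1:173599306-173599375, minus strand: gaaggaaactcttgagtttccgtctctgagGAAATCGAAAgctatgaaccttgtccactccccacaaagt
Ifi207, chr1:173741811-173741880, minus strand: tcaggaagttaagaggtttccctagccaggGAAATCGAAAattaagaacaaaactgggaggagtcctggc
Ifi211, chr1:173913044-173913113, minus strand: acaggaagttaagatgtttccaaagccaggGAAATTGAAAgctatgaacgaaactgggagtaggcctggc
Ifi203, chr1:173942488-173942557, minus strand: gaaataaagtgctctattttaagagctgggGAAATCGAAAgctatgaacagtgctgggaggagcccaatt
Ifi202b, chr1:173982795-173983094, minus strand: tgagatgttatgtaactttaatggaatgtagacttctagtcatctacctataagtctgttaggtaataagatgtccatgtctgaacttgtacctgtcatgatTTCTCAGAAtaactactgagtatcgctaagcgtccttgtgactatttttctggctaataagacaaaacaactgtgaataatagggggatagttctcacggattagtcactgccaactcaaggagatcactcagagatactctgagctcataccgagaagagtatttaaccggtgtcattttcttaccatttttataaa
Ifi205, chr1:174031850-174031919, minus strand: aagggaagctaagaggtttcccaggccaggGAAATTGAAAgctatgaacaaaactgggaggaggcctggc

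The response element core was present in 9 of the 12 genes (10 of their 14 windows), against 3.44% of all 32851 windows of that length. Duplication shaped this cluster and several stretches shown are much alike, so the 12 genes are not independent counts. Ifi203 had 2 windows, with the letters GAAATCGAAA 35 bases before the start in the one shown and no match in the other. Exactly those letters were found in 7 genes of the cluster, Ifi203 included. Ifi205 and Ifi211 had GAAATTGAAA in its place, at 134 and 37 bases before the start, and Ifi205 had a further match 24 bases after it. Aim2, Ifi209 and Ifi202b had no match. The gamma-activated core was found in the window of Ifi202b, 148 bases before the start, and in no other window of the cluster, against 8.30% of all windows. A match is a description of these letters and shows no binding.

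Array medians were near 5.05, 5.06 and 5.08 in AKR/J F1, against 5.099, 5.098 and 5.086 in DBA/2J F1. Markers of spleen cells were present in both crosses, and the summed linear signals of most lists differed between them. Sums and gene counts use the brightest probe set of each gene. Over all probe sets of a list, 88.9% were called for erythroid cells, 63.2% for T cells and 27.3% for dendritic cells. The share was 20% for NK cells, 17.4% for macrophages and monocytes, 13.3% for B cells and 0% for neutrophils, against 10.4% of all probe sets. The sum over 10 T cell genes was 4537 to 5089 in AKR/J F1 and 3416 to 3755 in DBA/2J F1, with 9 of the 10 called higher in AKR/J F1. For 12 erythroid genes the sums were 4692 to 7684 in AKR/J F1 and 14266 to 24277 in DBA/2J F1, with 11 called lower in AKR/J F1. Of 9 B cell genes 2 were called higher (21120 to 22994, against 16541 to 20299 in DBA/2J F1), of 12 macrophage and monocyte genes 3 (14907 to 16105, against 12701 to 14463) and of 8 dendritic cell genes 3 (1926 to 2226, against 1550 to 1911). NK cell markers had 2 of 8 called higher (1571 to 1763, against 1293 to 1515), and neutrophil markers had 0 of 9 called in limma, with 0 of 9 probe sets at an unadjusted p under 0.05 (4323 to 5889, against 3383 to 10450). Pancreatic acinar genes, which belong to a neighbouring organ, summed to 144075 to 151213 in AKR/J F1 and to 97158, 127527 and 897 in replicates 1, 2 and 3 of DBA/2J F1. Except for neutrophils, the sums of each of these lists did not overlap between the crosses. The part of the spleen cell lists in the differences below was not tested. Only the acinar genes were put into a fit, as a covariate, and its results are given below. In whole spleen, fewer cells of a type and less RNA per cell cannot be told apart.

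Ifi202b was higher in AKR/J F1 at both of its probe sets. At the probe set with its symbol alone (1421551_s_at) the values were 8.07, 7.92 and 7.91 in AKR/J F1, against 7.55, 7.31 and 7.43 in DBA/2J F1. The lowest AKR/J F1 array lay above the highest DBA/2J F1 array. The means were 7.97 ± 0.09 in AKR/J F1 and 7.43 ± 0.12 in DBA/2J F1 (SD, n = 3 each), a difference of 0.54 ± 0.09 (SE), or 1.45-fold (95% interval 0.32 to 0.75, adjusted p = 0.0160). At the probe set whose field also holds a predicted gene (1457666_s_at), the values were 8.20, 7.89 and 7.97 in AKR/J F1, against 7.47, 7.28 and 7.50 in DBA/2J F1. Here too the arrays of the crosses did not overlap, and the difference was 0.61 ± 0.11 (adjusted p = 0.0174), or 1.52-fold. The suffix _s_at marks probes that match more than one transcript, and RefSeq treats Ifi202a as a synonym of Ifi202b, so near-identical copies of this gene are read together. Over the 6 arrays the probe sets had Pearson's r = 0.981, as a description of 6 points in 2 groups.

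The call at Ifi202b rested on a narrow margin. At 1421551_s_at the adjusted p was 0.0594 without replicate 1 of AKR/J F1, 0.0580 and 0.0524 without replicates 2 and 3 of DBA/2J F1 and 0.0645 with the acinar genes as a covariate, while the difference stayed between 0.45 and 0.60 under all 13 alternatives. At 1457666_s_at the adjusted p was 0.0563 and 0.0529 without replicates 1 and 3 of AKR/J F1, 0.0615 without replicate 2 of DBA/2J F1 and 0.0534 with that covariate, with differences of 0.52 to 0.67.

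**Figure D1:**
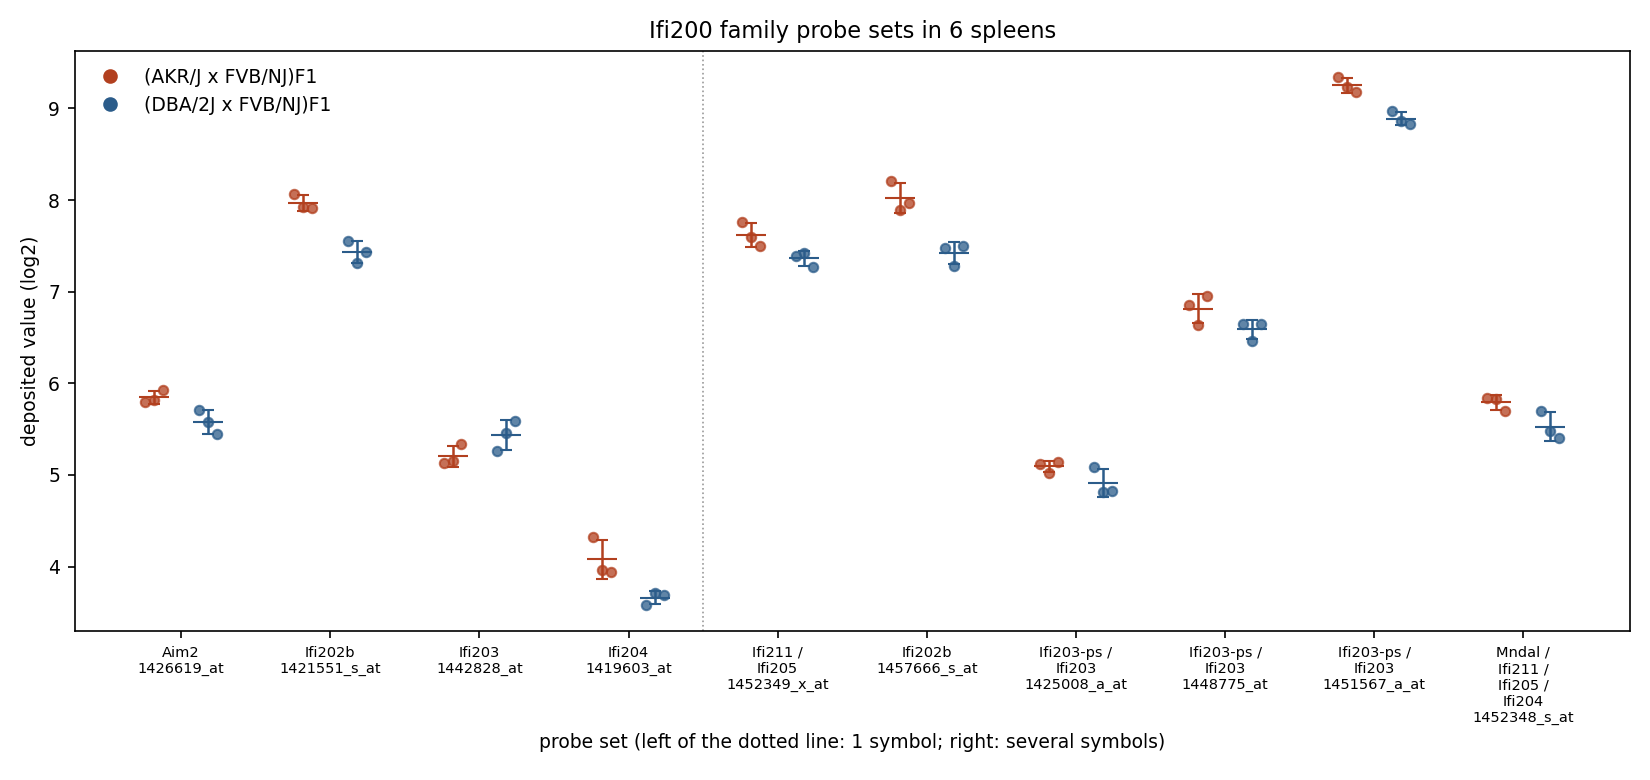
Deposited log2 value of each member probe set in each array (points), with the mean (wide bar) and SD (whiskers) of the 3 arrays of AKR/J F1 (left of each pair, red) and of DBA/2J F1 (right, blue); predicted LOC symbols are left off the labels. Both Ifi202b probe sets sit at 7.89 to 8.20 in AKR/J F1, above 7.28 to 7.55 in DBA/2J F1, and the single-symbol Ifi203 probe set is the one with the lower mean in AKR/J F1.

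Ifi203, which encodes a nuclear protein with a pyrin and a HIN domain, gave different answers at different probe sets. The one with 4 symbols (1451567_a_at), whose field also lists the pseudogene Ifi203-ps and predicted copies, had 9.34, 9.23 and 9.18 in AKR/J F1, against 8.97, 8.86 and 8.83 in DBA/2J F1. The crosses did not overlap there, and the difference was 0.36 ± 0.08 (adjusted p = 0.0353), or 1.29-fold. A further pair of probe sets shared with the pseudogene was not called. The one numbered 1448775_at had 6.85, 6.64 and 6.95 in AKR/J F1, against 6.65, 6.46 and 6.65 in DBA/2J F1 (0.23 ± 0.11, adjusted p = 0.190). At 1425008_a_at the values were 5.12, 5.02 and 5.14 in AKR/J F1, against 5.09, 4.82 and 4.82 in DBA/2J F1 (0.18 ± 0.10, adjusted p = 0.248). In both, the ranges of the crosses overlapped.

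The probe set annotated to Ifi203 alone (1442828_at) had the opposite sign. Its values were 5.13, 5.15 and 5.34 in AKR/J F1, against 5.26, 5.46 and 5.59 in DBA/2J F1, with a difference of -0.23 ± 0.11 (95% interval -0.48 to 0.01, adjusted p = 0.184). Replicate 3 of AKR/J F1 lay above replicate 1 of DBA/2J F1, so the ranges overlapped. The gap between the 4-symbol Ifi203 probe set and this one was 4.21, 4.08 and 3.85 in AKR/J F1, against 3.71, 3.40 and 3.25 in DBA/2J F1. That gap was larger by 0.60 in AKR/J F1, with a two-sided exact permutation p = 0.1, the smallest that 20 splits of 3 against 3 arrays can give, and this pair was chosen after its values were seen. The call at 1451567_a_at was lost with quantile normalization (0.29, adjusted p = 0.0822), with the acinar covariate (0.34, adjusted p = 0.119) and without any array except replicate 1 of DBA/2J F1 (0.32 to 0.40, adjusted p = 0.0701 to 0.106).

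Ifi204 encodes p204, a mouse relative of human IFI16 that has been linked to interferon induction by viral DNA. Its single-symbol probe set (1419603_at) was dim, in the lowest 40% of probe sets by mean level, at 4.32, 3.97 and 3.94 in AKR/J F1, against 3.58, 3.71 and 3.69 in DBA/2J F1. The AKR/J F1 arrays all lay higher, with replicate 1 well above the others, and the difference of 0.42 ± 0.12 (95% interval 0.15 to 0.68) did not pass (adjusted p = 0.0543). With each array centred on its median it passed (0.45, adjusted p = 0.04996), and likewise after quantile normalization (0.52, adjusted p = 0.0390). Without replicate 1 of AKR/J F1 it was 0.29 (adjusted p = 0.119).

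Aim2 (1426619_at) had 5.80, 5.82 and 5.93 in AKR/J F1, against 5.71, 5.58 and 5.44 in DBA/2J F1. These ranges did not overlap, but the gap between the nearest arrays was small, and the difference of 0.27 ± 0.10 (95% interval 0.05 to 0.49) was not called (adjusted p = 0.1). Aim2 passed under none of the 13 alternatives (adjusted p = 0.0622 to 0.3001).

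Ifi205, which in mouse macrophages has been tied to the expression of Pycard, could be read only in shared probe sets. At 1452349_x_at, shared with Ifi211, the values were 7.76, 7.59 and 7.50 in AKR/J F1, against 7.39, 7.43 and 7.27 in DBA/2J F1 (0.25 ± 0.10, adjusted p = 0.117). At 1452348_s_at, shared by Mndal, Ifi211, Ifi205 and Ifi204, they were 5.84, 5.83 and 5.70 in AKR/J F1, against 5.70, 5.48 and 5.40 in DBA/2J F1 (0.26 ± 0.10, adjusted p = 0.121). At each of them every AKR/J F1 array was above every DBA/2J F1 array, though at 1452348_s_at the nearest arrays were both 5.699 after rounding. Neither probe set was called.

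In all, 3 of the 10 member probe sets were called, each higher in AKR/J F1, against 10.4% of all probe sets called in either direction and 5.14% called higher in that cross. Of the 3, 1 was among the 4 with a single symbol and 2 among the 6 with several, and they represent Ifi202b and the Ifi203 copies. The 3 arrays of AKR/J F1 lay above all 3 of DBA/2J F1 at 7 of the 10, against 17.7% of all probe sets. The reverse held at 0 of 10, against 8257 of all 45037 probe sets. Among the 7, the nearest arrays at 1452348_s_at were both 5.699 after rounding. Members overlap in sequence and share arrays, so the 10 are not independent measurements. Their median difference was 0.27, against -0.02 over all probe sets. A shift of this size was not particular to the family. Marker lists had medians of 0.41 for T cells, 0.32 for B cells and 0.31 for NK cells. The medians were 0.21 for macrophages and monocytes, 0.20 for dendritic cells, -0.19 for neutrophils and -1.77 for erythroid cells. The 95% interval included 0 for 3 of the member probe sets (all annotated to Ifi203), and the highest upper bound was 0.85, at Ifi202b. Replicate 1 of AKR/J F1 was the highest array at 6 of the 10, and replicates 2 and 3 of DBA/2J F1 were the lowest at 4 each. The count called was 0, 2 and 1 without replicates 1, 2 and 3 of AKR/J F1, 3, 0 and 1 without replicates 1, 2 and 3 of DBA/2J F1, and 0 with the acinar covariate, settings in which 1.89% to 10.6% of all probe sets were called.

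**Figure D2:**
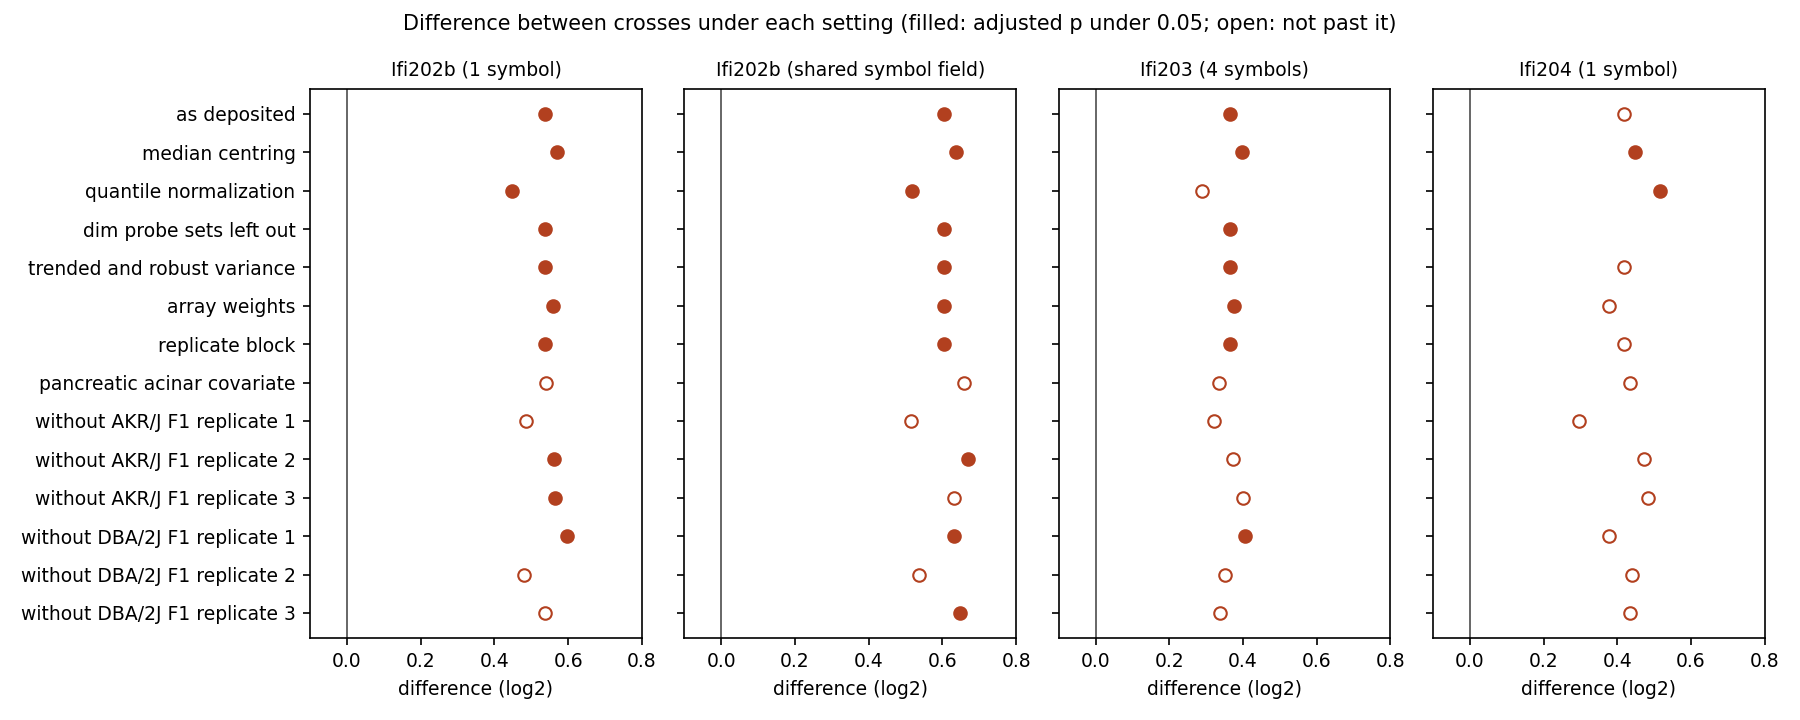
Difference between the crosses (log2, x axis) at the Ifi202b, 4-symbol Ifi203 and Ifi204 probe sets under each setting (rows), filled where the adjusted p was under 0.05; Ifi204 has no value where dim probe sets were left out. The differences keep their sign in every row, and filled points turn open in several rows that leave out 1 array.

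Other genes of the family lie between the members, and 4 of them (Ifi207, Ifi209, Ifi213 and Mndal) had 7 probe sets with a single symbol. None of the 7 was called in limma, 5 of them had an unadjusted p under 0.05 (71.4%, against 30.7% of all probe sets), and their median difference was 0.29. Ifi209, the mouse gene once called Pyhin1, had 9.61, 9.42 and 9.37 in AKR/J F1 at 1435331_at, against 9.27, 8.90 and 8.78 in DBA/2J F1. The ranges did not overlap, and the difference was 0.48 ± 0.14 (adjusted p = 0.0569). At its other probe set Ifi209 differed by 0.40 ± 0.14 (adjusted p = 0.0989).

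Ifi213 had 5.72, 5.58 and 5.61 in AKR/J F1, against 5.52, 5.29 and 5.35 in DBA/2J F1 (0.24, adjusted p = 0.115), and 0.33 (adjusted p = 0.0858) at a probe set near background. Ifi207 was dim, at 3.53 ± 0.07 in AKR/J F1 and 3.24 ± 0.21 in DBA/2J F1 (SD, n = 3 each; 0.29, adjusted p = 0.126). Mndal stood among the lowest values of the array at both probe sets. It had means of 2.15 and 2.53 in AKR/J F1, against 2.19 and 2.47 in DBA/2J F1, with differences of -0.04 and 0.06. With members and these genes together, 15 of 17 probe sets had a positive difference and 2 a negative one, against 46.8% positive over all probe sets, and several of the 17 share a gene or sequence. Over the 6 arrays, which share RNA samples and the split into crosses, this Ifi209 probe set (1435331_at) had Pearson's r = 0.951 with the 4-symbol Ifi203 probe set and r = -0.949 with the Ifi203 probe set of a single symbol.

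The 12 measured genes on each side of the cluster were examined to see how far along the chromosome such differences reached. Of their 37 single-symbol probe sets 4 were called (10.8%, against 10.4% of all), 2 higher and 2 lower in AKR/J F1, with a median difference of -0.06. Ackr1, which encodes the Duffy antigen receptor that binds chemokines on red cells and venules, lies close to Aim2 on the outer side. It was the neighbour with the largest difference and was lower in AKR/J F1, with 6.41, 6.25 and 6.25, against 7.30, 7.81 and 7.88 in DBA/2J F1 (-1.36 ± 0.15, adjusted p = 0.00336). That is the direction of the erythroid markers given above, and the part of red cell content in it was not tested. Between Ackr1 and Aim2, the cell adhesion gene Cadm3 had 3 probe sets with differences of -0.12, -0.04 and -0.14, and none was called.

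Slamf8, a receptor of the SLAM family on myeloid cells, was higher in AKR/J F1 by 0.50 ± 0.13 (adjusted p = 0.0470). Kmo, an enzyme of tryptophan breakdown, lies beyond Ifi205 and was higher by 0.57 ± 0.14 (adjusted p = 0.0387). Exo1, an exonuclease of DNA repair, was lower at 1 of its 3 probe sets (-0.78 ± 0.20, adjusted p = 0.0447), and its other probe sets, not called, differed by -0.94 ± 0.31 (adjusted p = 0.0817) and -0.07. The first measured genes past Ifi205, Mptx1, Fmn2 and Rgs7, were at or near background, with differences of -0.06 to -0.11. Slamf8, Kmo and Exo1 lost their calls with quantile normalization (adjusted p = 0.0629, 0.0821 and 0.0710) and without any 1 array other than replicate 1 of DBA/2J F1, while Ackr1 kept its call in every fit.

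**Figure D3:**
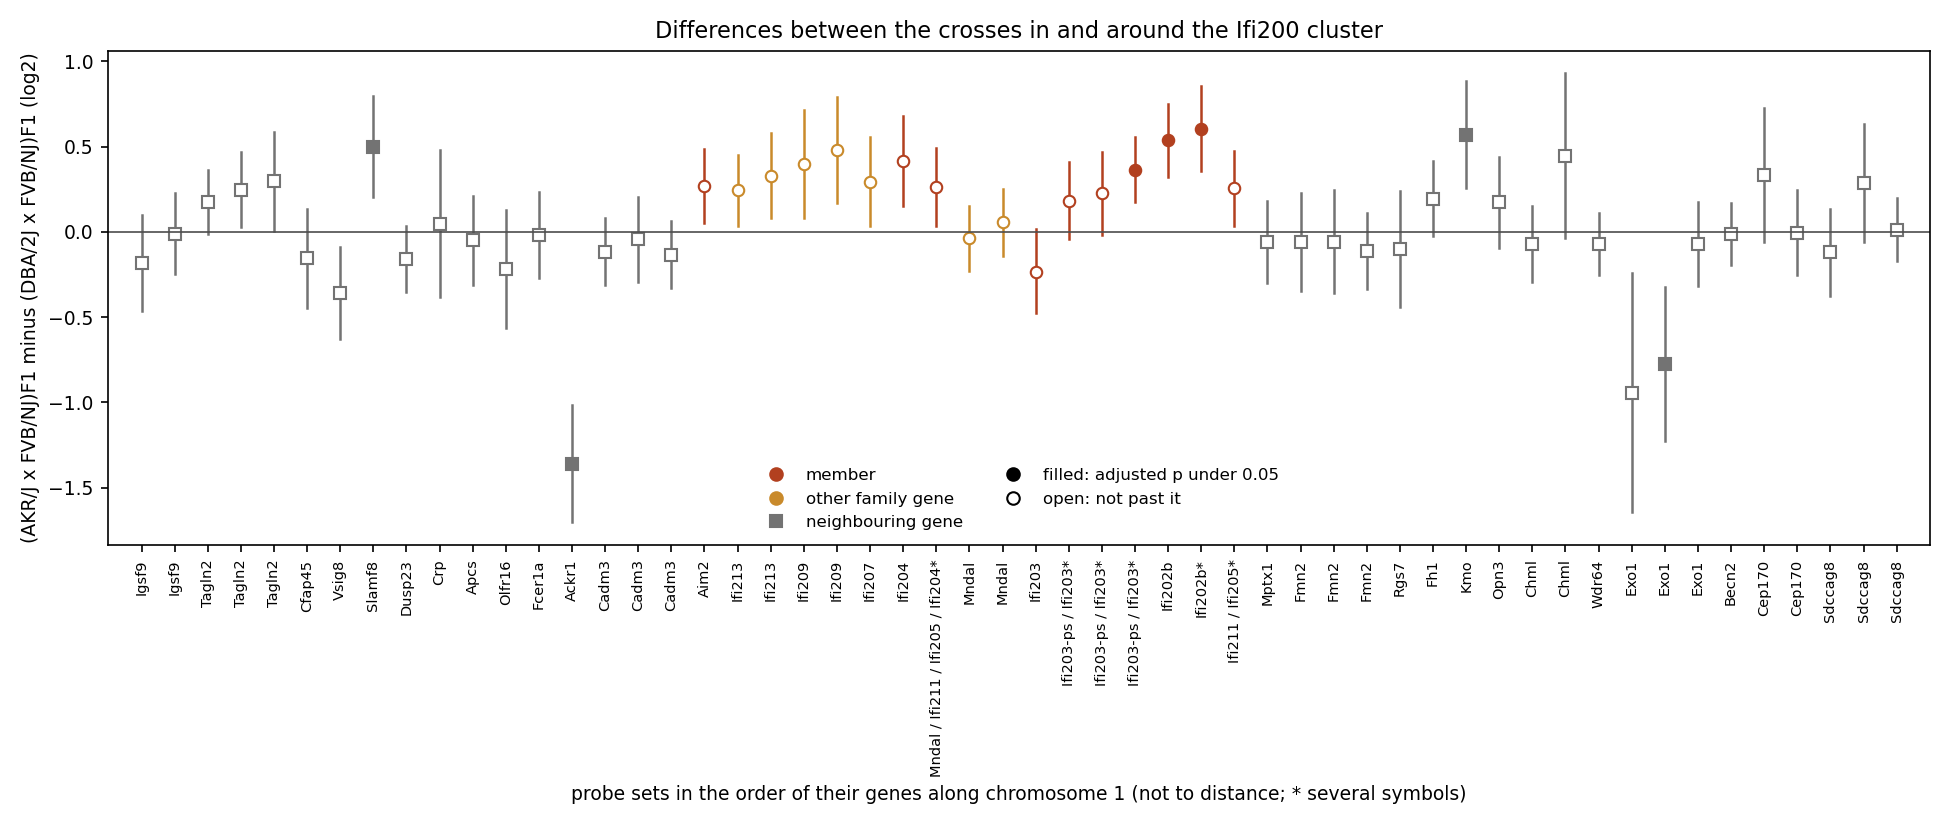
Difference between the crosses (log2, with limma's 95% interval) at each probe set, ordered by gene along chromosome 1 from 12 measured genes before Aim2 to 12 after Ifi205; members are red circles, other family genes ochre circles, neighbours grey squares, and filled symbols have an adjusted p under 0.05. Within the cluster 15 of 17 probe sets lie above 0, with Ifi202b highest at 0.54 and 0.61, and the neighbour Ackr1 lies lowest at -1.36.

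The pathway around these sensors was read from a list of cytosolic DNA sensing and inflammasome genes, of which 23 were measured by 41 single-symbol probe sets. Of the 41, 4 were called (9.76%, against 10.4% of all probe sets), so the share called was at the background. The 4 were all higher in AKR/J F1, and the median difference of the list was 0.13. Ikbke, a kinase that activates interferon regulatory factors, had 8.24, 8.08 and 8.38 in AKR/J F1, against 7.71, 7.75 and 7.48 in DBA/2J F1 (0.59 ± 0.11, adjusted p = 0.0199). Casp4, the caspase that senses bacterial lipopolysaccharide in the cytosol, was higher by 0.58 ± 0.13 (adjusted p = 0.0346). Sting1, the adaptor downstream of cGAS, was higher by 0.78 ± 0.14 at one probe set (adjusted p = 0.0188), and at its other one the difference was 0.30 ± 0.14 (adjusted p = 0.198). Zbp1, a sensor of Z-form nucleic acid, likewise passed at one (0.37 ± 0.10, adjusted p = 0.0473) and not at the other (0.14, adjusted p = 0.338).

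The AIM2 inflammasome partners Pycard and Casp1, and the caspase-1 substrates Il1b, Il18 and Gsdmd, were not called. Pycard differed by -0.04 (adjusted p = 0.747) at its bright probe set, Casp1 by 0.33 (adjusted p = 0.0978), Il18 by 0.14, Il1b by 0.50 (adjusted p = 0.105) and Gsdmd, the pore former of pyroptosis, by 0.22. Cgas, the DNA sensor outside this family, had differences of -0.15 and 0.08. The pathway count was 0 to 7 with 1 array left out, and 2 after quantile normalization.

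Interferon receptor and signalling genes, which act upstream of the family, had 0 of 24 probe sets called in limma, against 10.4% of all. Of the 24, 10 had an unadjusted p under 0.05 (41.7%, against 30.7% of all), and the median was 0.17. Irf9, a DNA-binding interferon regulatory factor, had the smallest p (0.33 ± 0.10, adjusted p = 0.0692). Interferon stimulated genes outside the family had 19 of 40 probe sets called (47.5%, against 10.4% of all), 13 higher and 6 lower in AKR/J F1, with a median of 0.21. By gene, at the brightest probe set, 12 of 27 were higher and 2 lower. This count takes in Xaf1 at the probe set where it was higher. Cmpk2, another gene of the list, counts as not called, though at 1422095_a_at it was called lower (-0.50, adjusted p = 0.02185). Xaf1, a protein that binds the apoptosis inhibitor XIAP, had the smallest p of the list and opposite signs at its 2 probe sets. At 1443621_at Xaf1 had 4.18, 4.03 and 4.39 in AKR/J F1, against 7.69, 7.31 and 7.49 in DBA/2J F1 (-3.29 ± 0.13, adjusted p = 1.58e-05). At 1443698_at Xaf1 was higher in AKR/J F1 (0.88 ± 0.19, adjusted p = 0.0288). Rtp4, a chaperone of membrane receptors, was higher by 0.80 ± 0.10 (adjusted p = 0.00648). At a further Rtp4 probe set near background the difference was -0.02 (adjusted p = 0.891). Ifit1, which binds foreign RNA ends, was higher by 0.67 ± 0.10 (adjusted p = 0.00873), at a dim probe set in the lowest 40% by mean level. Ifi27l2a, a small mitochondrial protein, was higher by 0.75 ± 0.12 (adjusted p = 0.0109). Rsad2, the antiviral enzyme viperin, had 9.57, 8.79 and 8.78 in AKR/J F1, against 10.75, 10.40 and 10.56 in DBA/2J F1 at 1436058_at (-1.52 ± 0.21, adjusted p = 0.00732). Its other probe sets differed by -1.60 and -1.74, and both were called.

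**Figure D4:**
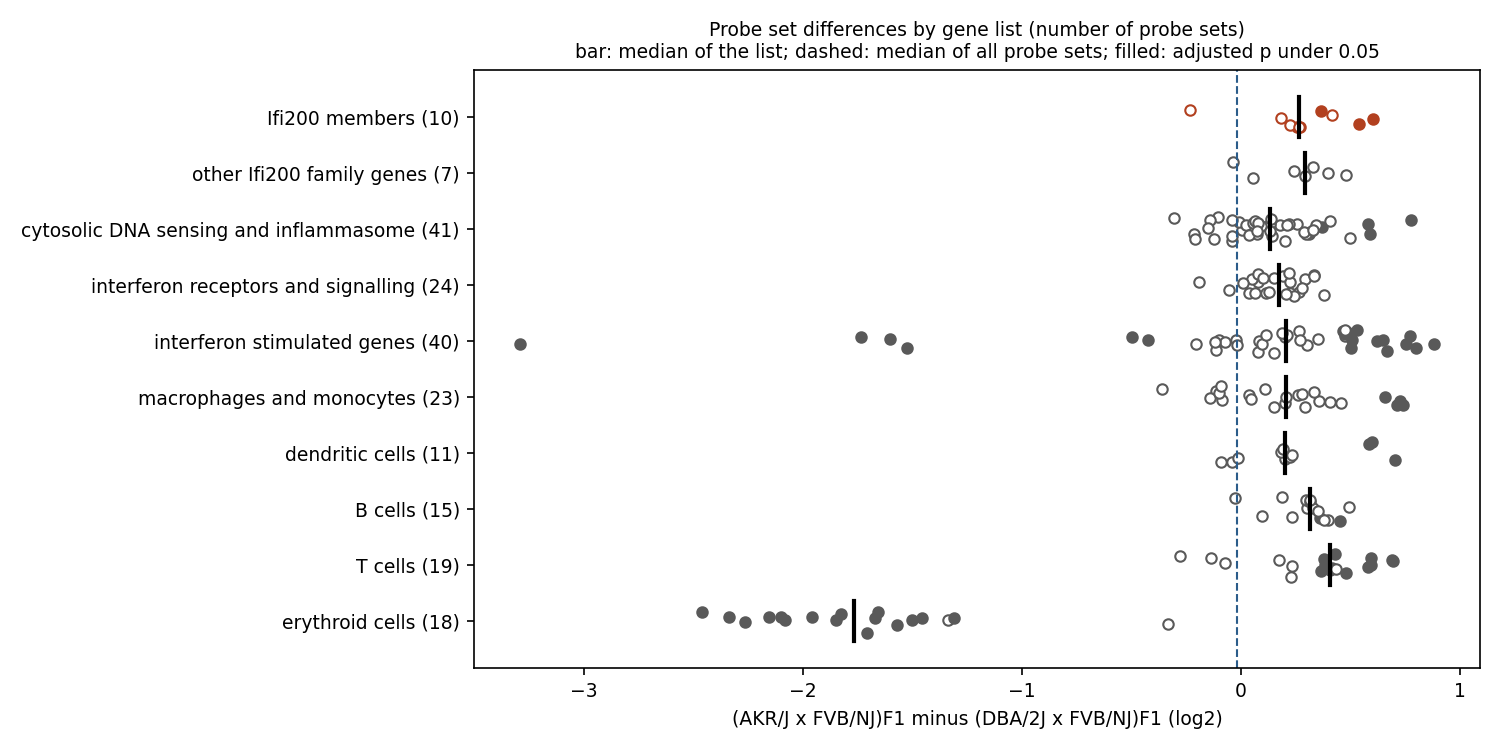
Difference between the crosses (log2, x axis) at each probe set of the members and of the lists (rows, with the number of probe sets), filled where the adjusted p was under 0.05; the black bar is the list median and the dashed line the median of all probe sets at -0.02. Members centre on 0.27, interferon stimulated genes spread to both sides, and erythroid genes lie at the low end.

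The array profiles most like those of the members were sought among single-symbol probe sets of other genes, as a description over 6 arrays in 2 groups. Those probe sets were at or above the 40th percentile of mean level. The closest to Ifi202b were Vamp3, a SNARE protein of vesicle fusion (Pearson's r = 0.999), Ppp2r1a, a scaffold subunit of protein phosphatase 2A (0.998), and Togaram1 (0.998), a protein of cilia. Vamp3 had 8.87, 8.60 and 8.56 in AKR/J F1, against 7.97, 7.58 and 7.78 in DBA/2J F1. For Aim2 the closest were Nipal2 (0.997), Cyth1 (0.994) and Creb3l1 (0.994), for Ifi204 they were Alkbh5 (0.999), Qars (0.995) and Itsn2 (0.994), and for the single-symbol Ifi203 probe set Wdr43 (0.998), Ap2a2 (0.993) and Fzd4 (0.990). No gene stood in more than 1 of these 4 sets. The search covered 22116 probe sets.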

How the data were processed

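Female spleen RNA in 3 samples of each cross was extracted with Trizol and hybridised, biotin-labelled, to Affymetrix arrays, 1 per sample, per the labels' protocols. The deposited values are log2 signals per probe set that the authors brought to a common scale, as near-equal array medians show. RMA and MAS5 are named, per the submitters' processing notes, without saying which gave these values. Summaries of this kind can compress differences near background, and sequence differences between strains under a probe can alter its signal at equal transcript level.

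Groups and replicate numbers came from the sample titles. Of 45101 probe sets, 64 controls were left out. Platform annotation gave 1 symbol to 34945 of the rest, several to 932 and none to 9160; 34741 of the first matched the GRCm38.p6 gene table by identifier, and gene order came from it. No genome build is named in the files.

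Differences were fitted per probe set with limma 3.58.1 (lmFit, eBayes) in R 4.3.3 on all 6 arrays without covariates, with Benjamini-Hochberg adjustment over all 45037 probe sets. With 4 residual degrees of freedom, the number of arrays limits the precision. A simulation with these group sizes (45037 probe sets, 50 changed per size, all others unchanged) was used to check the fit. It recovered 74% of rises of 1 log2 unit and 14% of rises of 0.5, and 72% and 2% of falls of those sizes. In the deposited data 10.4% of probe sets were called, far more than were changed there. The Benjamini-Hochberg cut therefore differs, and these rates do not give the power of the real comparison.

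Members and gene lists were chosen with earlier results of these data known. Named genes are all members, measured family genes, neighbours called, up to 4 called genes per list with the smallest adjusted p at any probe set (otherwise the smallest p), and 3 genes per member by likeness among probe sets at or above the 40th percentile of mean level, passing over clone and predicted names. Ifi27l2a, the AIM2 partners and caspase-1 substrates, Cgas, Cadm3, Mptx1, Fmn2 and Rgs7 were added after their values were seen. The alternatives were median centring, quantile normalization, dim probe sets left out, trended and robust variance, array weights, a replicate block, the acinar mean as a covariate and each array left out. Their effects are given in the closing section.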

Additional observations from a re-analysis of the deposited data

How the results depend on the processing

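Every member difference kept its sign under each of the 13 alternatives that gave it a value. The number of member probe sets called stayed at 3 after quantile normalization, with a trended and robust variance and with array weights. With dim probe sets left out it was 3 of the remaining 9. It was 4 with median centring, 0 with the pancreatic acinar covariate and 0 to 3 when 1 array was left out. Quantile normalization changed which were called, as 1451567_a_at lost its call and Ifi204 (1419603_at) gained one. The share of all probe sets called, 10.4% in the main fit, was lower after quantile normalization and with the acinar covariate. That share was higher with median centring, dim probe sets left out, trended and robust variance and array weights. Over all probe sets the count was 4688, against 849 with the acinar covariate and 1001 to 4793 with 1 array left out; the share of calls that were higher in AKR/J F1 was 61.9% with median centring and 49.4% as deposited. Dim probe sets left out gave 58.3%. The mean log2 level of the 10 acinar genes was 5.99 in DBA/2J F1 replicate 3 and 13.2 to 13.9 in the other arrays, so that covariate mostly sets this array apart.

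Among cluster neighbours and the other family genes between the members, 4 probe sets were called, against 1 after quantile normalization, 1 with the acinar covariate and 1 to 6 with 1 array left out. Of the DNA sensing and inflammasome probe sets 4 were called, against 2, 0 and 0 to 7 in those settings.

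With the replicate number as a replicate block 3 members were called, and 4658 probe sets in all. Same-numbered arrays had correlations of deviations from their cross means of 0.20, 0.11 and 0.05. Arrays of different numbers had correlations of -0.16 to 0.06. These values do not settle whether the numbers mark pairs, and the main fit did not use them as pairs. The block changed no member's call. Leaving out 1 array leaves 3 residual degrees of freedom. Dim signal limits Ifi204, Ifi207 and Mndal and, outside the family, Ifit1.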
